A study of Arabidopsis thaliana with 8 samples.

Results

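The photosystems and light-harvesting antennae of *Arabidopsis* chloroplasts are built from proteins of both the plastid and the nuclear genome, and 43 nuclear genes of the LHCB, LHCA, PSA and PSB families are described here. They are the rows of the deposited expression table that carry the identifiers of these families, 43 of 27207 genes in all. By complex they comprise 9 genes of the trimeric antenna LHCII, 5 of the minor antennae, 6 of the photosystem I antenna LHCI, 12 of the photosystem I (PSI) core, 5 of the oxygen-evolving complex and 6 of small photosystem II (PSII) proteins and PSBS. RNA was sequenced from whole seedlings of 14 days in the Col-0 background, which spent their first 5 days on half-strength (1/2) MS medium before transfer to fresh plates. The 4 groups were *idd4* with 100 mM NaCl, WT with 100 mM NaCl, *idd4* without NaCl (mock) and WT mock, with 2 libraries each, numbered 1 and 2. The *idd4* mutant carries a T-DNA insertion in the reading frame of IDD4, a zinc finger transcription factor of the INDETERMINATE DOMAIN family, and 1 mutant line was used. Seedlings hold root and shoot, and a lower value here cannot tell fewer green cells from less transcript per green cell.

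In the thylakoid membrane, LHCB proteins bind chlorophyll and pass light energy to PSII, which takes electrons from water, while LHCA proteins serve PSI, which reduces ferredoxin. The electron path between both photosystems runs through the cytochrome b6f complex and plastocyanin, and the proton gradient it builds drives the ATP synthase. In leaves these nuclear genes are among the most strongly transcribed, they are induced by light through the GLK activators and follow the circadian clock, and they are known to decline in stress and senescence.

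Each library gave between 5882615 and 13557480 fragments assigned to genes. Values are fragment counts multiplied by 1 factor per library, so that they compare a gene between libraries but not with another gene unless divided by length. All 43 genes were detected in every library, with at least 101 fragments. The targeted gene IDD4 (AT2G02080) had 603 and 527 in *idd4* NaCl and 414 and 428 in WT NaCl libraries, against 477 and 436 in *idd4* mock and 274 and 360.1 in WT mock libraries. Its value was thus higher in each library labelled *idd4* than in each WT library. A value over the whole gene does not check an insertion, so that *idd4* stands below for the libraries so labelled. The library *idd4* NaCl 1 had the fewest fragments and the lowest value of 41 of the 43 genes. It also held the highest summed level of 15 root markers (20094 in a range of 12412 to 20094) and of 6 senescence markers (1507 in a range of 223 to 1507). PYK10 alone gave 16503 of that root sum, so that the sum need not reflect the root markers as a set. Counts and medians that change without *idd4* NaCl 1 are given beside the results.

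The 43 genes took a smaller share of all fragments under NaCl. Their share was 5.18% and 8.24% in *idd4* NaCl and 7.48% and 8.52% in WT NaCl libraries, against 12.2% and 14.1% in *idd4* mock and 10.9% and 12.3% in WT mock libraries. The 4 NaCl libraries lay below the 4 mock libraries without overlap. LHCII genes made up the largest part in every library, with a summed value of 218788 and 336729 in *idd4* NaCl and 318785 and 370074 in WT NaCl libraries, against 455151 and 575885 in *idd4* mock and 337992 and 488043 in WT mock libraries. For LHCII the groups overlapped, because WT mock 1 lay below WT NaCl 2. The sums of the 12 PSI core genes did not overlap, at 91642 to 152471 in the 4 NaCl libraries against 231642 to 283662 in the 4 mock libraries.

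**Figure D1:**
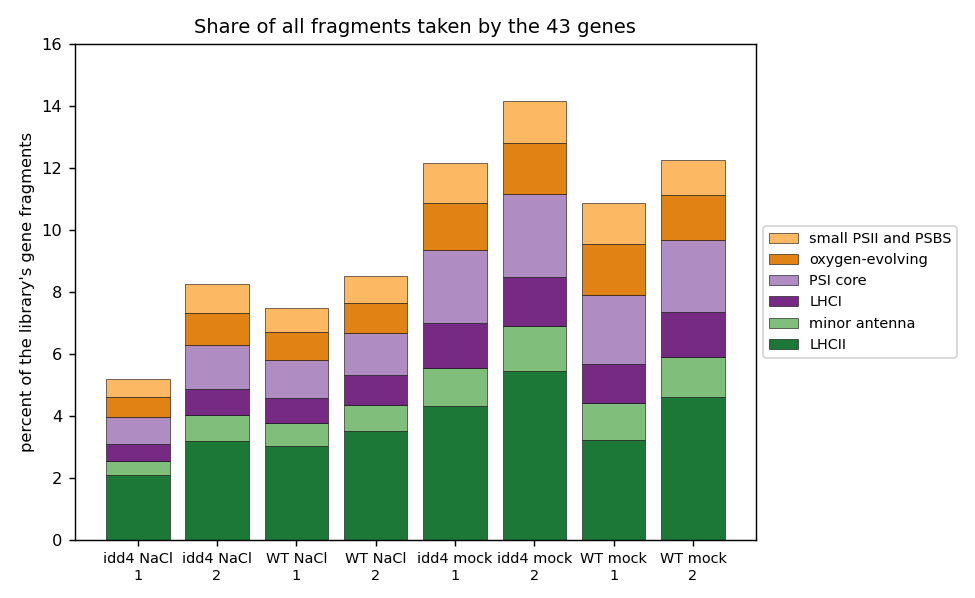
Stacked bars give the percent of all gene fragments of each library that fell on the 43 genes, split by complex; the 8 libraries run along the horizontal axis. The NaCl libraries reach 5.18% to 8.52% and the mock libraries 10.9% to 14.1%.

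With both genotypes averaged, 22 of the 43 genes fell under NaCl and none (0) rose (limma on log2(value + 1), Benjamini-Hochberg over 21820 genes, adjusted p under 0.05). Over all genes tested, 829 or 3.8% fell and 2644 or 12.1% rose. The median of the 43 genes was -0.86 on the log2 scale, and that of all genes 0.25. With median-of-ratios scaling, which takes away the shift of all genes (all-gene median 0.016), the median of the 43 was -1.11, 25 fell, and over all genes 1502 fell and 1160 rose. By edgeR 30 and by DESeq2 38 of the 43 fell, beside 6.49% and 7.18% of all genes, and by limma 33 had an unadjusted p under 0.05, beside 34.6%. All 4 NaCl libraries lay below all 4 mock libraries for 32 of the 43 genes, a pattern found in 5.44% of all genes, while for none (0) of the 43 did they lie above (21.7% of all genes). The 11 genes whose libraries overlapped were 7 LHCII genes, namely LHCB1.1, LHCB1.2, LHCB1.5, the 3 LHCB2 genes and LHCB3, together with LHCB4.2, LHCA5, PSBR and PSBS. The count of 22 depended on single libraries: it was 19 without *idd4* NaCl 1, 35 without *idd4* NaCl 2, 9 without WT NaCl 1, 15 without WT NaCl 2, 11 and 9 without *idd4* mock 1 and 2, and 12 and 11 without WT mock 1 and 2. Over all genes, 829 fell as reported, and in these fits, in the same order, 584, 856, 546, 539, 463, 430, 403 and 398 fell. Without *idd4* NaCl 1, PSAD1, PSAD2 and PSAE1 no longer passed. Genes called in each of 11 other settings that kept all 8 libraries were LHCB1.4, LHCB4.3, LHCA2, LHCA6, PSAN, PSBQ1, PSBQ2, PSBY and PSBTn. Their differences stayed negative when single libraries were left out. How many of all genes passed in each of these settings was not counted, so that these names are a description.

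**Figure D2:**
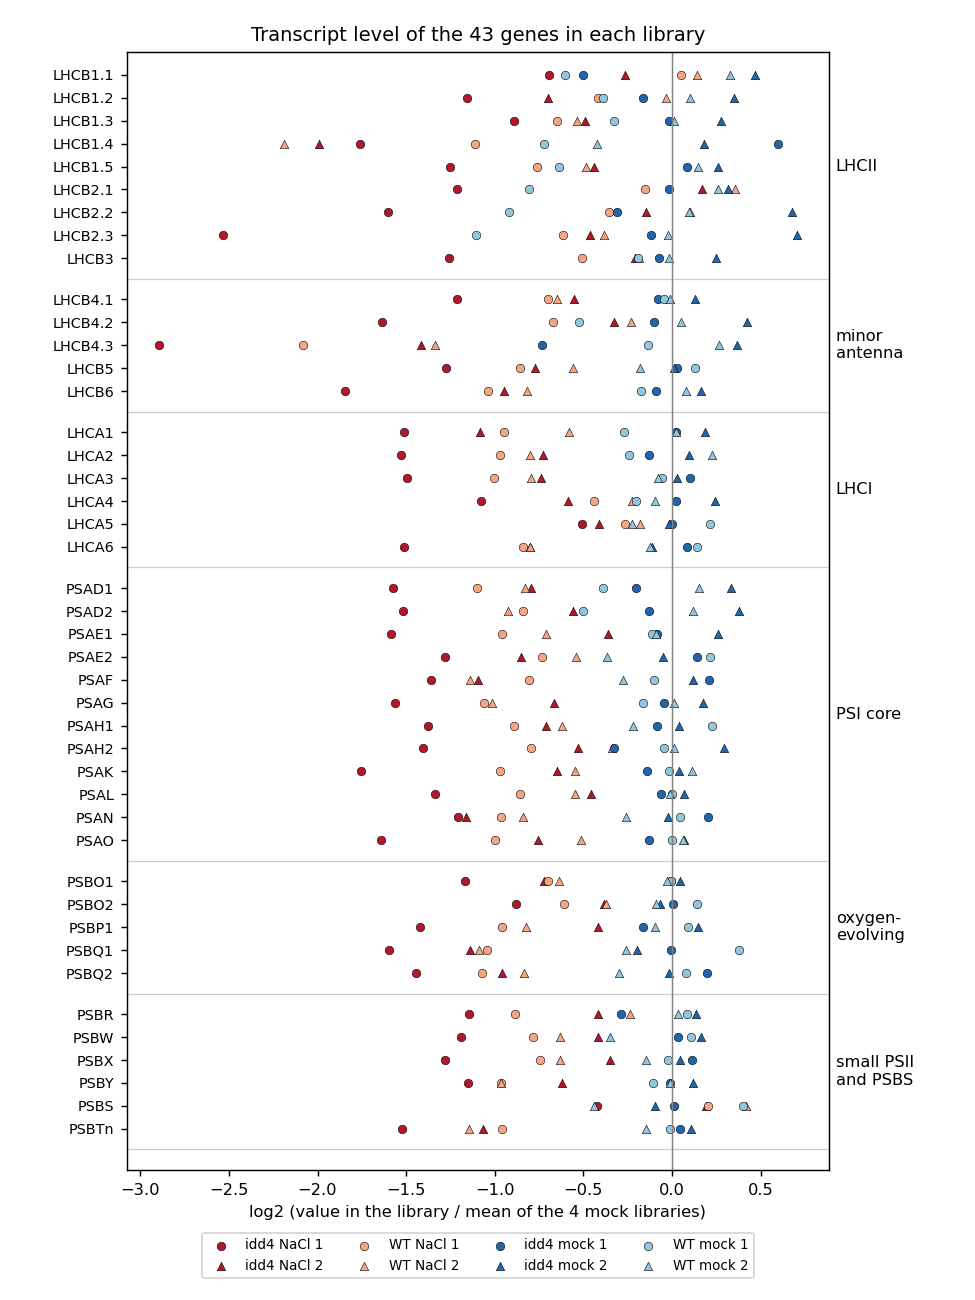
Each point is 1 gene in 1 library, as the log2 ratio of its value to the mean of the 4 mock libraries; circles are library 1 and triangles library 2 of each group, and genes are grouped by complex. Red and orange NaCl points lie left of the blue mock points for 32 genes, *idd4* NaCl 1 lies farthest left for 41, and the 11 genes with overlaps are 7 of the 9 LHCII genes, LHCB4.2, LHCA5, PSBR and PSBS.

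Transcript levels differed widely among the 43 genes. Per kilobase of exon, LHCB1.3 was the highest in WT mock libraries at 117456, ahead of LHCB1.5 at 84207, LHCB1.2 at 50948 and PSAG at 47024. The lowest were LHCB4.3 at 982, LHCA5 at 1110.2 and LHCA6 at 1880.2. LHCA5 and LHCA6 are known to link PSI to the NDH complex. This order of levels is a description, with no test between neighbours.

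LHCB1.1, LHCB1.2 and LHCB1.3 encode the most abundant LHCII proteins and lie side by side on chromosome 1 (TAIR10 coordinates: LHCB1.2 at chr1:10472280-10473502, minus strand; LHCB1.1 at chr1:10474656-10475969, minus strand; LHCB1.3 at chr1:10477885-10479114, plus strand). Their coding sequences of 804 bases are 95.6% to 96.4% identical and differ at 47 positions. The first 120 coding bases show how close they are, with the 9 positions at which the 3 genes differ in capitals (RefSeq, TAIR10.1).
LHCB1.1: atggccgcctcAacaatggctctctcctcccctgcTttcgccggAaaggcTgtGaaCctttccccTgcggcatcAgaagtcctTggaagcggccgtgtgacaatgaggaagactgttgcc
LHCB1.2: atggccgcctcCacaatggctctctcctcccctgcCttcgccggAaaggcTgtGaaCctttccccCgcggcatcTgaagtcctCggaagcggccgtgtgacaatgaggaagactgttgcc
LHCB1.3: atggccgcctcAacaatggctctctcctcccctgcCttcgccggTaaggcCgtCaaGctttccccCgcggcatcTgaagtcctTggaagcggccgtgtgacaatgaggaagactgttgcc
Between LHCB2.1 and LHCB2.2 identity was 96.6%, and between LHCB1.4 and LHCB1.5 91.4%. Some stretches of 100 coding bases were found unchanged in another of the 43 genes. They made up 7.66% of LHCB1.1, 2.41% of LHCB1.2, 5.25% of LHCB1.3, 5.70% of LHCB1.4 and 5.72% of LHCB1.5. For LHCB2.1 and LHCB2.2 they made up 13.6% and 18.5%. How shared reads were counted is not given in the sources used here, so that values of single LHCB1 and LHCB2 genes are uncertain and their sums are given as well. Of the 43 genes, 16 overlap another gene of the table, and among these the neighbours of PSAE2 (mean value 676 beside 4378 for PSAE2), PSAN (1225 beside 10194) and LHCB2.3 (390.3 beside 3539) had the highest levels relative to the member.

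Of the 9 LHCII genes, 1 fell under NaCl with genotypes averaged and the other 8 did not pass, with a median of -0.55. That median was -0.35 without *idd4* NaCl 1 and -0.034 after quantile normalization, with 5 of 9 genes lower. Quantile normalization gives each library the same set of values by rank. It therefore cannot show in full a fall shared by the highest genes. LHCB1.4 (AT2G34430, chr2:14524607-14525918, plus strand), an LHCB1 copy on chromosome 2, had 6178 and 5259.8 in *idd4* NaCl and 9691 and 4586 in WT NaCl libraries, against 31683 and 23759.7 in *idd4* mock and 12699 and 15639 in WT mock libraries. Its NaCl libraries were all below its mock libraries, and the difference was -1.67 ± 0.25 (SE, adjusted p = 0.0042, limma). The highest copy, LHCB1.3, had 86506 and 113846 in *idd4* NaCl and 102219 and 110511 in WT NaCl libraries, against 158057 and 193944 in *idd4* mock and 127709 and 161232 in WT mock libraries. Each NaCl library was again below each mock library, but the difference of -0.63 ± 0.33 (SE, adjusted p = 0.21, limma) did not pass, and its sign turned under quantile normalization (0.17). LHCB1.1, the copy that moved least, had 23212 and 31266 in *idd4* NaCl and 38938 and 41488 in WT NaCl libraries, against 26569 and 51948 in *idd4* mock and 24708 and 47097 in WT mock libraries. Replicates within the mock groups differed more for LHCB1.1 than the treatments did, with a difference of -0.11 ± 0.31 (SE, adjusted p = 0.81, limma). LHCB2.3, which encodes an LHCII protein that is phosphorylated in state transitions, had 773 and 3246 in *idd4* NaCl and 2929.7 and 3432 in WT NaCl libraries, against 4135 and 7300.2 in *idd4* mock and 2083 and 4414 in WT mock libraries. Its 2 *idd4* NaCl libraries lay far apart, and the difference did not pass, at -0.86 ± 0.43 (SE, adjusted p = 0.18, limma). The other 5 genes had differences of -0.55 ± 0.28 for LHCB1.2, -0.70 ± 0.33 for LHCB1.5, -0.15 ± 0.34 for LHCB2.1, -0.39 ± 0.37 for LHCB2.2 and -0.53 ± 0.28 for LHCB3 (SE). None of these passed, and of them LHCB1.5 and LHCB2.1 turned positive under quantile normalization. Summed over 5 LHCB1 genes, values were 188707 and 266614 in *idd4* NaCl and 261036 and 294688 in WT NaCl libraries, against 383604 and 476594 in *idd4* mock and 281570 and 408126 in WT mock libraries, where WT mock 1 lay below WT NaCl 2. The 3 LHCB2 genes summed to 11414 and 31550.4 in *idd4* NaCl and 26381 and 36197 in WT NaCl libraries, against 29221 and 46298 in *idd4* mock and 17371 and 35945 in WT mock libraries, so that this family overlapped between treatments.

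**Figure D3:**
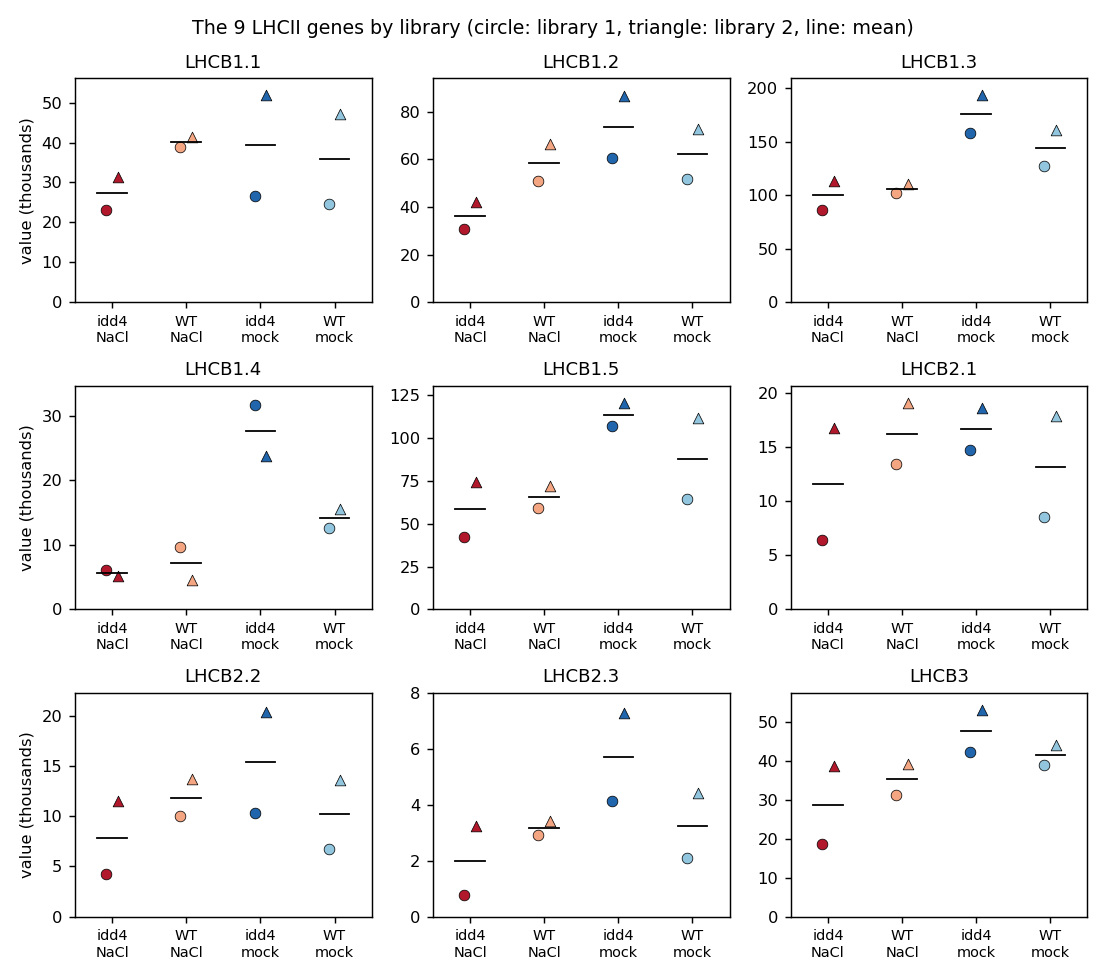
Each panel shows 1 LHCII gene, with the value (divided by 1000) on a vertical axis from 0 and the 4 groups along the horizontal axis; a line marks the mean of the 2 libraries. LHCB1.4 separates NaCl from mock, whereas LHCB1.1, LHCB2.1 and LHCB2.2 overlap, and library 1 of WT mock lies below library 2 in all 9 panels.

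The minor antennae, single proteins that connect LHCII to the PSII core, fell for 3 of 5 genes, with a median of -0.86. The largest difference among the 43 genes was that of LHCB4.3 (AT2G40100, chr2:16745628-16747424, plus strand), a form of CP29 that is also called LHCB8. It had 181 and 506 in *idd4* NaCl and 318 and 533 in WT NaCl libraries, against 812 and 1739 in *idd4* mock and 1225 and 1618 in WT mock libraries. The groups did not overlap, and the difference was -1.87 ± 0.35 (SE, adjusted p = 0.01, limma). LHCB6, which encodes CP24, had 11491 and 21446 in *idd4* NaCl and 20109 and 23389.6 in WT NaCl libraries, against 38809.8 and 46318 in *idd4* mock and 36568 and 43591 in WT mock libraries, a difference of -1.16 ± 0.25 (SE, adjusted p = 0.018, limma). LHCB5, which encodes CP26, had 10219.5 and 14486 in *idd4* NaCl and 13678 and 16799 in WT NaCl libraries, against 25206 and 24886 in *idd4* mock and 27108 and 21784 in WT mock libraries, a difference of -0.86 ± 0.20 (SE, adjusted p = 0.023, limma). Both stood lower in all NaCl libraries. The main CP29 genes did not pass: LHCB4.1 had 21808 and 34452 in *idd4* NaCl and 31109 and 32269 in WT NaCl libraries, against 47948 and 55321 in *idd4* mock and 48934 and 50113 in WT mock libraries, with a difference of -0.78 ± 0.24 (SE, adjusted p = 0.057, limma). LHCB4.2 had 6086 and 15081 in *idd4* NaCl and 11867 and 16129 in WT NaCl libraries, against 17625 and 25396 in *idd4* mock and 13134 and 19596 in WT mock libraries, with a difference of -0.68 ± 0.31 (SE, adjusted p = 0.15, limma). LHCB4.1 separated the treatments while LHCB4.2 did not, since WT mock 1 lay within its NaCl range.

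Of the 6 LHCI genes 4 fell, with a median of -0.99 (-0.55 after quantile normalization). LHCA1, which forms a dimer with LHCA4 on PSI, had 14968 and 20124 in *idd4* NaCl and 22119 and 28566 in WT NaCl libraries, against 43378 and 48650.0 in *idd4* mock and 35413 and 43436 in WT mock libraries, a difference of -1.02 ± 0.22 (SE, adjusted p = 0.018, limma). LHCA4 had a smaller difference that did not pass, at -0.57 ± 0.22 (SE, adjusted p = 0.1, limma). LHCA2, whose protein pairs with LHCA3, had 9147 and 15935 in *idd4* NaCl and 13479.8 and 15198 in WT NaCl libraries, against 24157 and 28276 in *idd4* mock and 22386 and 30969 in WT mock libraries, a difference of -0.997 ± 0.23 (SE, adjusted p = 0.023, limma). LHCA3 had 14492 and 24472 in *idd4* NaCl and 20339.7 and 23546 in WT NaCl libraries, against 43718 and 41567 in *idd4* mock and 39251 and 38685 in WT mock libraries, a difference of -1.01 ± 0.23 (SE, adjusted p = 0.022, limma). These libraries fell into a lower NaCl and a higher mock set without overlap. Of the NDH-linked pair, LHCA6 had 759 and 1242 in *idd4* NaCl and 1211 and 1241 in WT NaCl libraries, against 2292 and 2005 in *idd4* mock and 2386 and 1983 in WT mock libraries, a difference of -0.98 ± 0.17 (SE, adjusted p = 0.0069, limma). LHCA5 had 831 and 887 in *idd4* NaCl and 983 and 1041 in WT NaCl libraries, against 1180.0 and 1167 in *idd4* mock and 1369 and 1009.6 in WT mock libraries, and its difference of -0.33 ± 0.13 (SE, adjusted p = 0.11, limma) did not pass. LHCA5 was the LHCI gene with the smallest difference, and its groups overlapped.

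In the PSI core 10 of 12 genes fell, and all 12 differences lay between -1.09 and -0.75 with a median of -0.95. On the side of plastocyanin, PSAF, which docks that carrier, had 19119 and 22931 in *idd4* NaCl and 28072 and 22259 in WT NaCl libraries, against 56725 and 53178 in *idd4* mock and 45738 and 40478 in WT mock libraries, a difference of -1.09 ± 0.21 (SE, adjusted p = 0.012, limma). PSAN, a lumenal subunit that assists in the same step, had 5930.4 and 6125 in *idd4* NaCl and 7020.1 and 7646 in WT NaCl libraries, against 15746 and 13489 in *idd4* mock and 14149 and 11448 in WT mock libraries, a difference of -1.04 ± 0.16 (SE, adjusted p = 0.0043, limma). Both groups of libraries were separate for these genes, and for PSAN the library *idd4* NaCl 1 lay close to *idd4* NaCl 2. On the ferredoxin side, PSAD1 had 12975 and 22258 in *idd4* NaCl and 18019 and 21791 in WT NaCl libraries, against 33587 and 48732 in *idd4* mock and 29491 and 42909 in WT mock libraries, and PSAD2 had 5152 and 10023 in *idd4* NaCl and 8229.8 and 7772 in WT NaCl libraries, against 13473 and 19145 in *idd4* mock and 10389 and 15972 in WT mock libraries. The differences were -1.05 ± 0.26 (SE, adjusted p = 0.029, limma) for PSAD1 and -0.92 ± 0.25 (SE, adjusted p = 0.039, limma) for PSAD2. PSAE1 had 5665 and 13210.5 in *idd4* NaCl and 8726 and 10369 in WT NaCl libraries, against 15987 and 20332 in *idd4* mock and 15678 and 15929.5 in WT mock libraries, and PSAE2 had 2307 and 3106 in *idd4* NaCl and 3366 and 3850.1 in WT NaCl libraries, against 6167 and 5405 in *idd4* mock and 6487 and 4334 in WT mock libraries. Their differences were -0.90 ± 0.26 (SE, adjusted p = 0.0484, limma) for PSAE1 and -0.83 ± 0.17 (SE, adjusted p = 0.016, limma) for PSAE2, and both kept NaCl below mock in all libraries.

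PSAG, which anchors the LHCI belt, had 13075 and 24347 in *idd4* NaCl and 18485 and 19102 in WT NaCl libraries, against 37393 and 43606 in *idd4* mock and 34438 and 38919 in WT mock libraries, a difference of -1.07 ± 0.24 (SE, adjusted p = 0.021, limma). PSAK, on the opposite side of the belt, had 2284 and 4904 in *idd4* NaCl and 3930.3 and 5263 in WT NaCl libraries, against 6979 and 7902 in *idd4* mock and 7589.8 and 8313 in WT mock libraries, a difference of -0.98 ± 0.23 (SE, adjusted p = 0.025, limma). PSAO, needed with PSAH and PSAL when LHCII docks to PSI in state transitions, had 4535 and 8384 in *idd4* NaCl and 7089 and 9940.2 in WT NaCl libraries, against 12947 and 14832 in *idd4* mock and 14141 and 14769 in WT mock libraries, a difference of -0.98 ± 0.22 (SE, adjusted p = 0.021, limma). All 3 separated the treatments. PSAH1 had 2588 and 4096 in *idd4* NaCl and 3622 and 4376 in WT NaCl libraries, against 6338 and 6914 in *idd4* mock and 7860.5 and 5758 in WT mock libraries, a difference of -0.89 ± 0.19 (SE, adjusted p = 0.016, limma). PSAH2 had 3982 and 7282 in *idd4* NaCl and 6073 and 8324 in WT NaCl libraries, against 8402 and 12897 in *idd4* mock and 10185 and 10619 in WT mock libraries, a difference of -0.75 ± 0.24 (SE, adjusted p = 0.06, limma) that missed the threshold, as did that of PSAL at -0.80 ± 0.24 (SE, adjusted p = 0.0549, limma). Of the PSI core, PSAH2 had the smallest difference.

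In PSII, 2 of 5 genes of the oxygen-evolving complex fell, both of them PSBQ genes, and the median was -0.90 (-0.40 after quantile normalization). These lumenal proteins shield the manganese cluster that splits water. PSBQ1 (AT4G21280, chr4:11334352-11335815, plus strand) had 3580.5 and 4927 in *idd4* NaCl and 5249 and 5088 in WT NaCl libraries, against 10792 and 9469.5 in *idd4* mock and 14074 and 9043 in WT mock libraries, a difference of -1.20 ± 0.19 (SE, adjusted p = 0.0052, limma). PSBQ2 had 4709 and 6596 in *idd4* NaCl and 6099.5 and 7182 in WT NaCl libraries, against 14680.4 and 12644 in *idd4* mock and 13529.6 and 10405 in WT mock libraries, a difference of -1.07 ± 0.18 (SE, adjusted p = 0.0067, limma). The PSBO genes encode the manganese-stabilising protein: PSBO1 had 31609 and 42965 in *idd4* NaCl and 43625 and 45638 in WT NaCl libraries, against 70560.5 and 73023 in *idd4* mock and 70613 and 69462 in WT mock libraries, with -0.81 ± 0.25 (SE, adjusted p = 0.0548, limma), and PSBO2 had 9549 and 13471 in *idd4* NaCl and 11544 and 13563 in WT NaCl libraries, against 17636 and 16764 in *idd4* mock and 19409 and 16541 in WT mock libraries, with -0.56 ± 0.19 (SE, adjusted p = 0.07, limma). PSBP1 stood at -0.90 ± 0.28 (SE, adjusted p = 0.056, limma). All 5 genes had each NaCl library below each mock library, although PSBO1, PSBO2 and PSBP1 did not pass.

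Of the 6 remaining PSII genes 2 fell, with a median of -0.75 (-0.48 after quantile normalization). PSBTn, a small lumenal subunit, had 10286 and 14103 in *idd4* NaCl and 15211 and 13389 in WT NaCl libraries, against 30462 and 31808 in *idd4* mock and 29334 and 26657 in WT mock libraries, a difference of -1.17 ± 0.19 (SE, adjusted p = 0.0059, limma). PSBY, a small membrane subunit, had 7082 and 10230.3 in *idd4* NaCl and 8062 and 8036 in WT NaCl libraries, against 15599.5 and 17066 in *idd4* mock and 14586 and 15601 in WT mock libraries, a difference of -0.92 ± 0.17 (SE, adjusted p = 0.01, limma). Groups were separate for both. PSBR, PSBW and PSBX had differences of -0.66 ± 0.24, -0.74 ± 0.23 and -0.75 ± 0.24 (SE), none past the threshold. PSBS (AT1G44575, chr1:16870221-16873427, plus strand) encodes the sensor of lumenal acidity that starts the thermal dissipation of excess light. With genotypes averaged, it was the only one of the 43 with a higher fitted value under NaCl. Within WT alone some LHCII genes also had higher fitted values, and within *idd4* PSBS stood at -0.073. It had 8614 and 13151 in *idd4* NaCl and 13288 and 15386 in WT NaCl libraries, against 11609.5 and 10794 in *idd4* mock and 15243 and 8496 in WT mock libraries, so that the treatments overlapped widely. Its difference of 0.13 ± 0.23 (SE, adjusted p = 0.72, limma) lay below the median gene and turned to -0.11 with median-of-ratios scaling.

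The 250 bases upstream of the annotated start are shown for LHCB1.3 as the gene of highest level, for LHCB4.3 and PSBQ1 as the largest differences in the minor antennae and the oxygen-evolving complex, and for PSBS as the gene with a higher fitted value under NaCl with genotypes averaged (RefSeq, TAIR10.1). Capitals mark matches on either strand to AGACAA (core letters of the motif named for maize ID1, an IDD protein), GATAAG (I-box core), CACGTG (G-box) or CCAATC.
LHCB1.3, chr1:10477635-10477884, plus strand: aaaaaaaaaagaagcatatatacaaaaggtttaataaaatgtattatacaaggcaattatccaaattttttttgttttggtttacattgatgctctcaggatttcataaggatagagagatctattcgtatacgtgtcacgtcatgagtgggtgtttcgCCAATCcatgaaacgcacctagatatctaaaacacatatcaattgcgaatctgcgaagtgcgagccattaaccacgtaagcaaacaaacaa
LHCB4.3, chr2:16745378-16745627, plus strand: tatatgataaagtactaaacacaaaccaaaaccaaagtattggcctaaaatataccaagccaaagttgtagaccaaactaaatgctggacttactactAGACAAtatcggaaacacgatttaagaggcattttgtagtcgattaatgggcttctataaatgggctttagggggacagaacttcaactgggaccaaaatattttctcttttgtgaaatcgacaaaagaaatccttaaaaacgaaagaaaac
PSBQ1, chr4:11334102-11334351, plus strand: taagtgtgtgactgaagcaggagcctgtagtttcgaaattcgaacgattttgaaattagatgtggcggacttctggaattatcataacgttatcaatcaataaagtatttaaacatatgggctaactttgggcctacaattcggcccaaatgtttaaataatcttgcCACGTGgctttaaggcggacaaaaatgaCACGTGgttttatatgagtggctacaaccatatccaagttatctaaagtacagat
PSBS, chr1:16869971-16870220, plus strand: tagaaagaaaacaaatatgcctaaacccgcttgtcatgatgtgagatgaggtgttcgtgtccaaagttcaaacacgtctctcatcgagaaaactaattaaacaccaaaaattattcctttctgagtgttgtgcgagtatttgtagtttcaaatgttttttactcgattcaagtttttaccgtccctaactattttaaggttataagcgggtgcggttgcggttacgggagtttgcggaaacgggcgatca
LHCB1.3 held CCAATC, LHCB4.3 held AGACAA, PSBQ1 held CACGTG at 2 places and PSBS held none of these words. Upstream of the 43 genes, AGACAA was found in 7 (16.3%, against 19.6% of 27443 upstream regions of protein-coding genes), GATAAG in 9 (20.9%, against 12.3%), CACGTG, which reads the same on both strands, in 9 (20.9%, against 6.49%) and CCAATC in 11 (25.6%, against 10.2%). The evening element AAAATATCT was found in 1 (2.33%, against 2.36%). No word contains another, and a match is a description of letters, not of binding. Of the 7 genes with AGACAA, 5 fell with genotypes averaged (LHCB4.3, PSAD2, PSAN, PSAO and PSBY) and 2 did not pass (LHCB4.2 and PSBP1), beside 22 of all 43.

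Within *idd4*, 8 of 43 genes fell under NaCl and none (0) rose, beside 0.88% of 21820 genes that fell and 2.08% that rose. They were LHCB1.4, LHCA6, PSAE2, PSAF, PSAN, PSBQ1, PSBQ2 and PSBTn, at -2.27 ± 0.35 for LHCB1.4 and between -1.37 and -1.11 for PSBTn, PSBQ2, PSAN, PSBQ1, LHCA6 and PSAE2, with -1.39 ± 0.30 for PSAF (SE, limma). All 43 fitted differences were negative, with a median of -1.06 beside 0.25 over all genes, and both *idd4* NaCl libraries lay below both *idd4* mock libraries for 39 genes (12.6% of all genes) and above for 0 (40.2%). The count of 8 was 0 without *idd4* NaCl 1, 24 without *idd4* NaCl 2, 2 without either WT NaCl library, 0 without either *idd4* mock library and 2 without either WT mock library. Over all genes 192 fell as reported, and 35, 262, 148 to 156, 17 to 19 and 82 to 83 in these fits. Without *idd4* NaCl 1 the median was -0.69 and 41 differences were negative. By edgeR 9 and by DESeq2 34 of the genes fell in *idd4*, beside 1.31% and 3.11% of all genes.

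Within WT, 0 of 43 genes passed in limma and 0 in edgeR, while DESeq2 called 22, all lower, beside 0.55%, 0.885% and 2.82% of all genes that fell by these tools and 1.85% that rose by limma. At an unadjusted p under 0.05, limma gave 20 genes in WT, all lower, and 35 in *idd4*, beside 20.4% and 21.3% of all genes in either direction. The median was -0.68 in WT, 38 fitted differences were negative, and both NaCl libraries lay below both mock libraries for 33 genes (11.9% of all genes) and above for 0 (42.5%). Without *idd4* NaCl 1 or without *idd4* NaCl 2, which enter the shared estimate of the spread, 4 genes passed in WT, beside 191 and 184 of all genes that fell. The differences nearest to the threshold were those of PSBQ1 at -1.13 ± 0.27 (SE, adjusted p = 0.062, limma), PSBY at -0.91 ± 0.24 (SE, adjusted p = 0.09, limma) and PSAN at -0.80 ± 0.22 (SE, adjusted p = 0.095, limma). The LHCII genes had a WT median of -0.082 and 5 of 9 differences negative, but that median was -0.33 without WT mock 1, 0.16 without WT mock 2, 0.11 without WT NaCl 1, -0.27 without WT NaCl 2, -0.32 with median-of-ratios scaling and 0.26 after quantile normalization. By complex, the other WT medians were -0.68 for the minor antennae, -0.73 for LHCI, -0.77 for the PSI core, -0.84 for the oxygen-evolving complex and -0.61 for small PSII proteins and PSBS. After quantile normalization LHCI, the oxygen-evolving complex and the small PSII group stood at -0.36, -0.41 and -0.39 in WT.

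**Figure D4:**
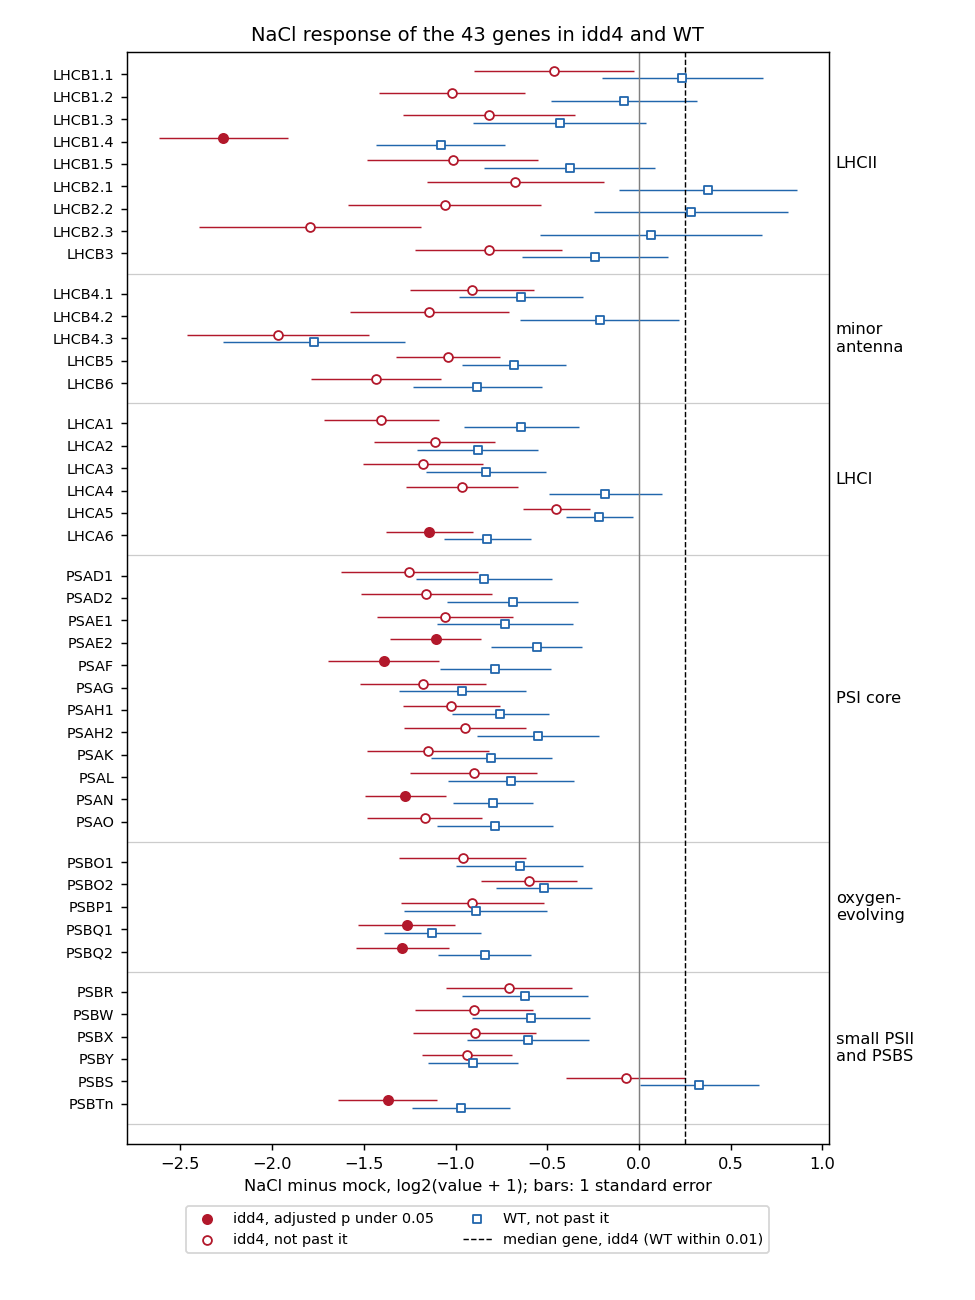
For each gene, NaCl minus mock on the log2(value + 1) scale is given in *idd4* (red circles) and WT (blue squares) with 1 standard error; filled symbols passed the adjusted threshold, and the dashed line is the median gene. The 8 filled symbols are all of *idd4*, and differences in the LHCII genes reach from -2.27 to -0.46 in *idd4* and from -1.08 to 0.38 in WT.

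Whether the NaCl response differed between genotypes was tested as an interaction, and 0 of 43 genes passed by limma, edgeR or DESeq2, beside 0% of all genes that fell. At an unadjusted p under 0.05, limma gave 1 gene (LHCB1.4, -1.19 ± 0.50, SE), edgeR 1 and DESeq2 3, beside 0.93%, 1.04% and 0.467% of all genes by these tools. All 43 fitted interactions were negative, with a median of -0.39. This means a larger fall in *idd4*, or a fall where the WT difference was positive (LHCB1.1, LHCB2.1, LHCB2.2, LHCB2.3 and PSBS). The median was -0.055 with 23 of 43 negative without *idd4* NaCl 1, and -0.74 without *idd4* NaCl 2. By complex it was -0.94 for the 9 LHCII genes, -0.36 for the minor antennae, -0.33 for LHCI, -0.39 for the PSI core, -0.14 for the oxygen-evolving complex and -0.30 for small PSII proteins and PSBS. Without *idd4* NaCl 1 the last 3 turned to 0.046, 0.089 and 0.12, and the minor antennae and LHCI stood at -0.10 and -0.077. Without *idd4* NaCl 2 the 5 complexes other than LHCII had medians of -0.94 to -0.52, and without WT mock 2 the oxygen-evolving complex stood at 0.033. Leaving out single libraries other than *idd4* NaCl 1 turned no other of these medians positive. The LHCII median ranged from -1.18 to -0.49 when single libraries were left out, being -0.49 without *idd4* NaCl 1 and -0.52 without WT mock 1, all 9 genes being negative in each of these fits. After quantile normalization it was -0.64, with 8 of 9 genes negative. The 9 genes were read from the same libraries, so that their common sign is not 9 separate results.

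Between genotypes under NaCl, 0 of 43 genes passed by limma, edgeR or DESeq2 (0 of all genes by limma), and 0 by limma, 0 by edgeR and 1 by DESeq2 had an unadjusted p under 0.05, beside 2.44%, 2.27% and 1.16% of all genes by these tools. The median of *idd4* minus WT was -0.28, with 42 genes lower in *idd4*, but 0.041 with 18 lower without *idd4* NaCl 1 and -0.63 without *idd4* NaCl 2. Both *idd4* libraries lay below both WT libraries for 10 genes (18.1% of all genes did so), among them LHCA1, LHCA4 and PSBS, and above for 0 (9.32%). Between genotypes without NaCl, 0 of the 43 passed by any of these tools. Of all genes 0% passed by limma, while DESeq2 called 2 as higher and 1 (0.00458%) as lower in *idd4*. Of the 43, LHCB1.4 alone had an unadjusted p under 0.05 by limma (1.26% of all genes), at 0.96 ± 0.35 (SE, adjusted p = 1, limma). The median was 0.13, with 12 genes lower in *idd4*. All 9 LHCII genes had a higher fitted value in *idd4* mock than in WT mock, with a median of 0.42, which was 0.14 without *idd4* mock 2 and 0.088 without WT mock 1. Both *idd4* mock libraries lay above both WT mock libraries for 7 genes, LHCB1.4, LHCA3, LHCA4, PSAE1, PSAF, PSBX and PSBTn, beside 9.05% of all genes, and below for 0 (15.9%).

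Duplicated genes allowed ratios to be taken within a library, which 1 factor per library does not change. For 8 ratios, 4 NaCl and 4 mock libraries were compared by an exact permutation test (two-sided, smallest possible p 0.0286). After Benjamini-Hochberg adjustment 0 passed, but most of the 8 ratios would have had to reach that smallest p for any to pass. The count of 0 thus says little about single ratios. The log2 ratio of LHCB4.3 to LHCB4.1 was -6.91 and -6.09 in *idd4* NaCl and -6.61 and -5.92 in WT NaCl libraries, against -5.88 and -4.99 in *idd4* mock and -5.32 and -4.95 in WT mock libraries. NaCl libraries lay below mock libraries without overlap, a difference of -1.10 (exact permutation p = 0.0286, adjusted p = 0.229 over 8 pairs). PSBO1 to PSBO2 stood at 1.77 ± 0.11 under NaCl and 2.01 ± 0.11 in mock (SD, 4 libraries each, exact permutation p = 0.0571, adjusted p = 0.229). The other 6 ratios, PSAD1 to PSAD2, PSAE1 to PSAE2, PSAH1 to PSAH2, PSBQ1 to PSBQ2, LHCB4.1 to LHCB4.2 and summed LHCB1 to summed LHCB2, differed by -0.29 to -0.062 with exact permutation p-values of 0.229 to 0.971 (adjusted 0.533 to 0.971). LHCB1 to LHCB2 varied widely within a treatment, from 3.03 to 4.05 under NaCl and from 3.36 to 4.02 in mock. Both libraries numbered 1 lay apart from both numbered 2 for 6 of the 8 ratios within NaCl and for 6 within mock, and the permutation of 4 against 4 libraries did not take the numbers into account. Quantile normalization does change such ratios: NaCl minus mock was then -2.05 for LHCB4.3 and -0.23 for LHCB4.1, and -0.32 for PSBO1 and -0.38 for PSBO2.

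**Figure D5:**
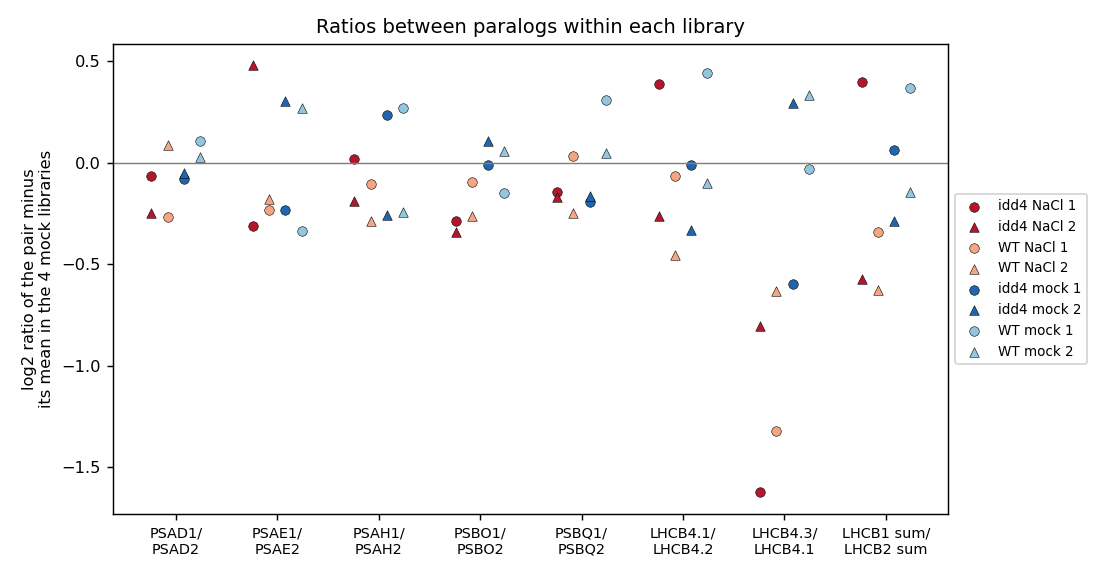
For 8 pairs of paralogs, the log2 ratio within each library is plotted after subtraction of its mean in the 4 mock libraries; colours are groups, circles library 1 and triangles library 2. LHCB4.3 relative to LHCB4.1 is the pair whose NaCl libraries all lie below its mock libraries, and circles lie apart from triangles within mock for 6 of the 8 pairs.

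Other genes of the thylakoid were read from lists in the same fit with genotypes averaged. Of 8 genes for cytochrome b6f and electron carriers 6 fell and none (0) rose, with a median of -0.84. PETE2, the main plastocyanin gene, had 23009.5 and 28687 in *idd4* NaCl and 33186 and 32852 in WT NaCl libraries, against 62972 and 59159 in *idd4* mock and 59356 and 55113 in WT mock libraries, a difference of -1.02 ± 0.22 (SE, adjusted p = 0.018, limma). The ferredoxin gene FD2 stood at -0.98 ± 0.23 (SE, adjusted p = 0.025, limma), the ferredoxin-NADP reductase genes LFNR1 and LFNR2 at -0.83 ± 0.20 (SE, adjusted p = 0.024, limma) and -1.001 ± 0.20 (SE, adjusted p = 0.013, limma), and the cytochrome b6f subunits PETC and PETM at -0.84 ± 0.19 (SE, adjusted p = 0.019, limma) and -0.69 ± 0.16 (SE, adjusted p = 0.023, limma). Of 4 nuclear ATP synthase genes 3 fell, ATPD at -1.03 ± 0.18 (SE, adjusted p = 0.0074, limma), ATPG at -0.76 ± 0.18 (SE, adjusted p = 0.022, limma) and ATPC1 at -0.62 ± 0.18 (SE, adjusted p = 0.0499, limma). The 9 genes that fell in both lists had no difference beyond -1.03, and that of ATPD was the largest of them.

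Of 13 assembly and repair genes 2 fell, PSB27 at -0.73 ± 0.15 (SE, adjusted p = 0.014, limma) and PSB28 at -0.76 ± 0.20 (SE, adjusted p = 0.033, limma), with a list median of -0.19. Of 9 genes for thylakoid regulation 2 fell, CURT1B, which bends grana margins, at -0.66 ± 0.16 (SE, adjusted p = 0.028, limma) and VDE, the violaxanthin de-epoxidase of the xanthophyll cycle, at -0.74 ± 0.17 (SE, adjusted p = 0.023, limma). PGRL1B had the largest value of that list without passing, at 0.77 ± 0.32 (SE, adjusted p = 0.13, limma). Among 8 other antenna-like genes 1 rose: ELIP1, an early light-induced protein that binds pigment under stress, had 854 and 599 in *idd4* NaCl and 384 and 1091 in WT NaCl libraries, against 226 and 206 in *idd4* mock and 271 and 211 in WT mock libraries, a difference of 1.58 ± 0.29 (SE, adjusted p = 0.0096, limma). LHCB7 stood at 0.57 ± 0.23 (SE, adjusted p = 0.12, limma). None (0) of 9 plastid-encoded photosystem genes passed by limma. Their median was 0.55 and the largest values were 0.94 ± 0.64 (SE, adjusted p = 0.32, limma) for psaC and 0.82 ± 0.25 (SE, adjusted p = 0.0525, limma) for psaA. The values of psaC were near the floor, at 1.00 to 14.4 in NaCl and 0.80 to 3.84 in mock libraries. The plastid-encoded sum was also highest in *idd4* NaCl 1, at 4018 in a range of 1267 to 4018. In that library the 43 nuclear genes summed to 546884. How well these libraries hold plastid transcripts was not tested, so that the plastid values need not measure their levels.

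The GLK and sigma factor list moved in both directions, with 2 of 10 genes higher and 1 lower. GLK2, an activator of photosynthesis genes, rose: it had 920.2 and 883 in *idd4* NaCl and 1339.8 and 1453 in WT NaCl libraries, against 789.6 and 672 in *idd4* mock and 462 and 579.9 in WT mock libraries, a difference of 0.87 ± 0.13 (SE, adjusted p = 0.0038, limma). In WT alone it was 1.43 ± 0.18 (SE, adjusted p = 0.007, limma) and in *idd4* 0.31 ± 0.18 (SE, adjusted p = 0.35, limma), and the interaction of -1.12 ± 0.25 (SE, adjusted p = 1, limma) did not pass. GLK1 stood at 0.07 ± 0.16 (SE, adjusted p = 0.78, limma). Of the sigma factors, which direct plastid transcription, SIG2 fell at -0.79 ± 0.14 (SE, adjusted p = 0.008, limma) and SIG1 rose at 0.69 ± 0.20 (SE, adjusted p = 0.049, limma), though SIG1 did not pass after median-of-ratios scaling (0.45, adjusted p = 0.26, limma). Of 11 clock genes 4 rose and none (0) fell. CCA1, a morning factor that binds promoters of LHCB genes, had 135 and 171 in *idd4* NaCl and 228 and 231 in WT NaCl libraries, against 46.1 and 58.4 in *idd4* mock and 19.3 and 30.8 in WT mock libraries, a difference of 2.36 ± 0.22 (SE, adjusted p = 0.00056, limma). LHY, PRR9 and RVE8 stood at 1.33 ± 0.36 (SE, adjusted p = 0.036, limma), 1.29 ± 0.24 (SE, adjusted p = 0.0094, limma) and 1.70 ± 0.41 (SE, adjusted p = 0.026, limma), on values of 5.97 to 89.1. LHY did not pass after median-of-ratios scaling (adjusted p = 0.059, limma). The hour of harvest is not given in the sources used here, and the part of the clock genes in the fall of the 43 genes was not tested.

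Markers of other tissues and of senescence were set beside the fall. Of 15 root markers 1 rose, NRT2.1 at 2.17 ± 0.51 (SE, adjusted p = 0.024, limma), and 1 fell, COBL9 at -0.84 ± 0.15 (SE, adjusted p = 0.0092, limma). The sum of the root markers was 13566 to 20094 in NaCl and 12412 to 16499 in mock libraries. Its largest part was PYK10 in every library, at 6776 to 16503 in NaCl and 8525 to 12926 in mock libraries. LRX1 had the next largest difference, at -1.12 ± 0.39 (SE, adjusted p = 0.081, limma). Of 10 leaf markers without a photosynthetic role 3 fell, SPCH at -0.97 ± 0.29 (SE, adjusted p = 0.0499, limma), FAMA at -0.67 ± 0.16 (SE, adjusted p = 0.025, limma) and ATML1 at -0.52 ± 0.13 (SE, adjusted p = 0.027, limma), and 1 rose, AN3 at 0.90 ± 0.26 (SE, adjusted p = 0.045, limma), which did not pass after median-of-ratios scaling (adjusted p = 0.17, limma). The leaf sum was 1666 to 2364 in NaCl and 2163 to 2400.1 in mock libraries, and the trichome gene GL1 was at 0 in *idd4* NaCl 1. Of 6 senescence markers 3 of the 5 tested rose: SAG13 had 683 and 76.8 in *idd4* NaCl and 218 and 45.6 in WT NaCl libraries, against 10.6 and 9.6 in *idd4* mock and 4.28 and 5.97 in WT mock libraries, a difference of 4.22 ± 0.68 (SE, adjusted p = 0.0058, limma). Of the NAC factors of leaf ageing, ORE1 stood at 1.91 ± 0.27 (SE, adjusted p = 0.0037, limma). NAP had 109 and 84.5 in *idd4* NaCl and 58 and 55.4 in WT NaCl libraries, against 50.8 and 32 in *idd4* mock and 3.21 and 11.9 in WT mock libraries, and its NaCl libraries were higher (adjusted p = 0.0081, limma). SAG12, the defining marker of late senescence, was at 0 in all 8 libraries. The part of tissue makeup and of senescence in the fall of the 43 genes was not tested.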

How the data were processed

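RNA sequencing of 8 libraries of *Arabidopsis* seedlings was analysed. The authors sequenced paired ends, removed poor bases with Trimmomatic 0.32, placed the reads on TAIR10 by TopHat and ran Cufflinks. The values deposited by the authors are an expression signal per gene, a fragment count multiplied by 1 factor per library and not divided by length, although the analysis had been planned for FPKM. At least 99.96% of values up to 1000 steps lay within 0.05 of a whole multiple of the library's step, and fragments (5882615 to 13557480 per library) were recovered from it. Strand and shared reads in counting are not given in the sources used here, and 16 of the 43 genes overlap another gene of the table.

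The log2(value + 1) of 21820 genes averaging 1 or more was fitted with limma 3.58.1 (R 4.3.3), 1 mean per group and trended variances. Adjustment of the two-sided p covered every gene fitted (Benjamini-Hochberg, 0.05). Alternatives were edgeR 4.0.16 and DESeq2 1.42.0 on recovered fragments, 3 scalings, other pseudocounts and filters, a replicate block and leaving out each library. The fit was tested on simulated data. The study's text speaks of biological replicates, and of more of them per group than the 2 libraries in the labels; the labels do not say how these were grown, so that p-values measure the spread between libraries. Paralog ratios were compared by exact permutation. Sequences came from RefSeq TAIR10.1, which matched all 43 genes; exon lengths are unions over transcripts, and identities are those of the closest isoforms. Of the 43 genes, values per library were given for those past the threshold in any contrast, the 2 largest and 1 smallest difference per complex and paralog pairs. From other lists, genes that passed and the largest differences were named. Values per library were given for some of these, and for most only the fitted difference. LHCB1.3 was added after its values were seen. The members and lists were chosen with earlier results of these data known.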

Additional observations from a re-analysis of the deposited data

How the results depend on the processing

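With genotypes averaged, 22 genes fell as reported, 14 after quantile normalization, 38 by DESeq2 and 9 to 35 when single libraries were left out; the median of -0.86 was -0.58 after quantile normalization. In *idd4*, 8 genes fell as reported, 3 without a filter on low values, 5 after quantile normalization, 0 without a variance trend, 1 when only the libraries compared were fitted, 34 by DESeq2 and 0 to 24 when single libraries were left out. In WT, 0 fell as reported, 1 each with median-of-ratios scaling, TMM scaling and only the libraries compared, 22 by DESeq2 and 0 to 4 when single libraries were left out. The WT median of -0.68 was -0.92 with median-of-ratios scaling, -0.91 with TMM, -0.40 after quantile normalization, -0.90 by edgeR, -0.91 by DESeq2 and -0.78 to -0.55 when single libraries were left out. Leaving out single libraries gave medians of -0.63 to 0.041 for *idd4* minus WT under NaCl, 0.031 to 0.19 without NaCl (0.047 after quantile normalization) and -0.74 to -0.055 for the interaction. The causes of these changes were not tested. Over all genes with genotypes averaged, 829 fell as reported, 1396 after quantile normalization and 1567 by DESeq2. In *idd4*, 192 of all genes fell as reported, 137 without the filter, 265 after quantile normalization and 33 without the trend. There 30 fell with only the libraries compared and 678 by DESeq2. In WT, 120 of all genes fell as reported, 239 with median-of-ratios scaling and 226 with TMM. With only the libraries compared 104 fell in WT, and by DESeq2 615. After quantile normalization LHCB1.1, LHCB1.3, LHCB1.5 and LHCB2.1 were at 0.43, 0.17, 0.12 and 0.020. Values set by rank limit a fall shared by the highest genes, so that this setting is a weak check on them. In the genotype contrasts and the interaction, 0 of the 43 genes passed in each setting run. Of the paralog ratios 0 passed as reported, with other pseudocounts and without single libraries. In these settings most of the ratios would have had to reach the smallest possible p for any to pass. With the replicate block the smallest possible p exceeds 0.05, so that no ratio could pass whatever its values, and that setting is no check.

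The labels number the libraries 1 and 2 in each group without saying that a number marks a shared batch. Libraries of the same number were correlated positively between groups in each pair of groups. Over all genes these correlations were 0.041 to 0.40, and among the photosystem and antenna genes 0.17 to 0.71. The fit as reported leaves the number out, and what the numbers stand for was not tested. With the number as a replicate block, 33 of the photosystem and antenna genes fell with genotypes averaged, 25 in *idd4* and 3 in WT. Without the block, as reported, these counts were 22, 8 and 0. Of 21820 genes, 1291, 503 and 393 fell with the block, and 829, 192 and 120 without it. With the block, 0 of the photosystem and antenna genes passed in the genotype contrasts and the interaction. With 2 libraries a group, single genes with small differences could not be separated from replicate spread, and counting error was minor because no gene had fewer than 101 fragments in a library.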
